A study of Mus musculus with 30 samples.

Results

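Mouse memory CD8+ T cells that were stimulated on their own were compared at 96 h and at 18 h of culture, across all genes of the array. The members of the comparison were 6 of the 30 arrays of the series, 3 labelled as memory cells alone at 96 h and 3 labelled as memory cells alone at 18 h, and they were taken from the labels alone. The memory cells (TMem) were TCR-transgenic Pmel-1 CD8+ T cells of the Ly5.2 type on a C57BL/6 background that had been differentiated in vitro, so they are a culture-made model of memory and carry a single transgenic receptor, for a melanocyte antigen of the gp100 protein. At both times the cells had been activated with antibodies to CD3 and CD28 together with IL-2, which replaces antigen on a presenting cell. They were sorted before RNA was extracted. Further groups are used as background: TMem at 0 h, without stimulation, TMem that were stimulated mixed with naive cells (TMem mix), and naive Ly5.1 Pmel-1 CD8+ T cells stimulated alone (TN alone), with 3 arrays in each group and time. The labels describe the mice as adult females of 6 to 12 weeks, and the spleen as the source. The design text calls the 3 arrays of a group biological repeats.

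When a memory CD8+ T cell meets its antigen again, signals from the T cell receptor and CD28 switch on calcium, MAP kinase and NF-kappaB pathways, and within hours these drive immediate early genes, cytokines and chemokines. The cells then grow and divide, and over days they stock their granules with perforin and granzymes, the proteases that kill target cells, while the early signals are shut down by inhibitors and by loss of the stimulus. The comparison of 18 h with 96 h sets these early and late programmes side by side within one cell population.

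Each value below is a log2 expression value of one array, and a difference of 1 is a 2-fold change. Over the 6 arrays the array medians, taken over all 35556 array rows, ran from 6.849 to 6.886. Centring on the medians of the 19938 genes tested moved the median difference, 96 h minus 18 h, from 0.04 to -0.052. Pairs of arrays correlated with r between 0.9956 and 0.9967 within the 18 h group, between 0.9974 and 0.9979 within the 96 h group, and between 0.9727 and 0.9748 across the times. A gene is called near background in a group where its mean lies under a lower quartile, averaged over that group's arrays (5.66 at 18 h and 5.65 at 96 h). This quartile was taken over all array rows, with or without a gene symbol. A fold change against such a group is given as a bound. The TMem arrays at 0 h were more spread, with r between 0.9838 and 0.9907: replicate 1 stood high for cytokine genes and replicate 3 stood apart for others, so their values are given singly. Over all genes, the weights that limma gave these arrays were 2.03, 0.235 and 0.282 for replicates 1, 2 and 3. A low weight marks a wider spread, so replicate 2 is not a cleaner reference.

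The cells were checked against their labels first. CD8 T cell markers were well measured in all 6 arrays, with mean levels over 10 genes of 10.988 to 11.124 at 18 h and 11.108 to 11.193 at 96 h. Macrophage, dendritic cell and neutrophil markers had 3 of 22 called higher and 3 lower (13.6% each), against 14.6% and 9.87% of all genes. Their mean levels were 6.212 to 6.268 at 18 h and 6.371 to 6.465 at 96 h. At both times 6 of these 22 genes were near background, and the called rises were Fcer1g, Ly6g and Cd68. The call for Cd68 was lost with centred arrays and without replicate 2 of 18 h, replicate 2 of 96 h or replicate 3 of 96 h. B cell markers had 0 of 14 higher and 3 lower (mean levels of 6.145 to 6.26 at 18 h and 6.047 to 6.112 at 96 h). At both times 5 of the 14 were near background. NK cell markers had 6 of 10 higher and 1 lower (6.664 to 6.783 at 18 h and 7.543 to 7.568 at 96 h), with 3 of the 10 near background at both times. Several of these NK markers are also expressed by activated CD8+ T cells. CD4 and regulatory T cell markers had 1 of 10 higher and 4 lower, and erythroid markers 0 of 8 in either direction. Mast cell and basophil markers had 2 of 11 higher, Mcpt8 (by 0.85) and Cpa3 (by 0.76), and 0 lower. The call for Cpa3 was lost in 8 of 16 alternatives. The part of other cells in the results was not tested. In bulk RNA, fewer cells of a type and less RNA per cell cannot be told apart. The labelled sex did not match the TMem arrays: Xist, the RNA of the inactive X chromosome, lay between 5.14 and 5.76 at 0, 18 and 96 h, while the Y-linked Eif2s3y lay between 8.82 and 9.47. The TN alone arrays held Xist at every time, but at 18 h they also held Eif2s3y, at 8.09, 8.09 and 8.25, against 4.17, 4.20 and 4.13 at 96 h.

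Between 18 h and 96 h the memory cells lost cytokine, chemokine and early response transcripts and gained granzymes, mitotic genes and genes of lipid metabolism. Of 19938 genes tested with limma, 4868 were called at an adjusted p under 0.05 (24.4%). Of these, 2901 were higher at 96 h (14.6% of all genes) and 1967 were lower (9.87%). With each array centred on its median the split turned to 2124 higher and 2649 lower, and with quantile normalization it was 2628 higher and 2462 lower, so the direction of small differences depends on the scaling. A difference of at least 1 was reached by 720 genes (3.61%), 472 higher (2.37%) and 248 lower (1.24%). Beyond the calls, all 3 values at 96 h lay above all 3 at 18 h for 5255 genes (26.4%) and below them for 3613 (18.1%). The labels name no array batch, so time and any batch that differed between the 18 h and 96 h arrays cannot be told apart.

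Among the 15 largest rises were 5 granzymes (Gzmd, Gzme, Gzmg, Gzma and Gzmk), the interferon-inducible membrane proteins Ifitm1 and Ifitm3, the ectonucleotidase Entpd1 (CD39), the Fc receptor gamma chain Fcer1g, the chemokine receptor Ccr2 and the UDP-sugar receptor P2ry14. Among the 15 largest falls were the cytokines Il3, Il2, Il1a and Ifng, the chemokines Xcl1, Ccl1, Ccl9 and Ccl3, the opioid peptide precursor Penk, and the activation markers Crtam and Cd83. Ly6a2 read 7.22, 7.72 and 7.56 at 18 h and 11.32, 11.45 and 11.39 at 96 h, a rise of 3.89 ± 0.33 (SE). Gpr141, an orphan G protein-coupled receptor, was near background at 18 h (5.53, 5.54 and 5.83) and stood at 9.21, 9.28 and 9.23 at 96 h, at least 12.0-fold higher. Ifitm1 went from 7.62, 7.69 and 7.76 to 11.27, 11.21 and 11.37, and Ifitm3 from 8.14, 8.38 and 8.67 to 11.84, 12.03 and 11.82. These genes were picked for a large difference without overlap between the times, so their separation follows from the choice.

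**Figure D1:**
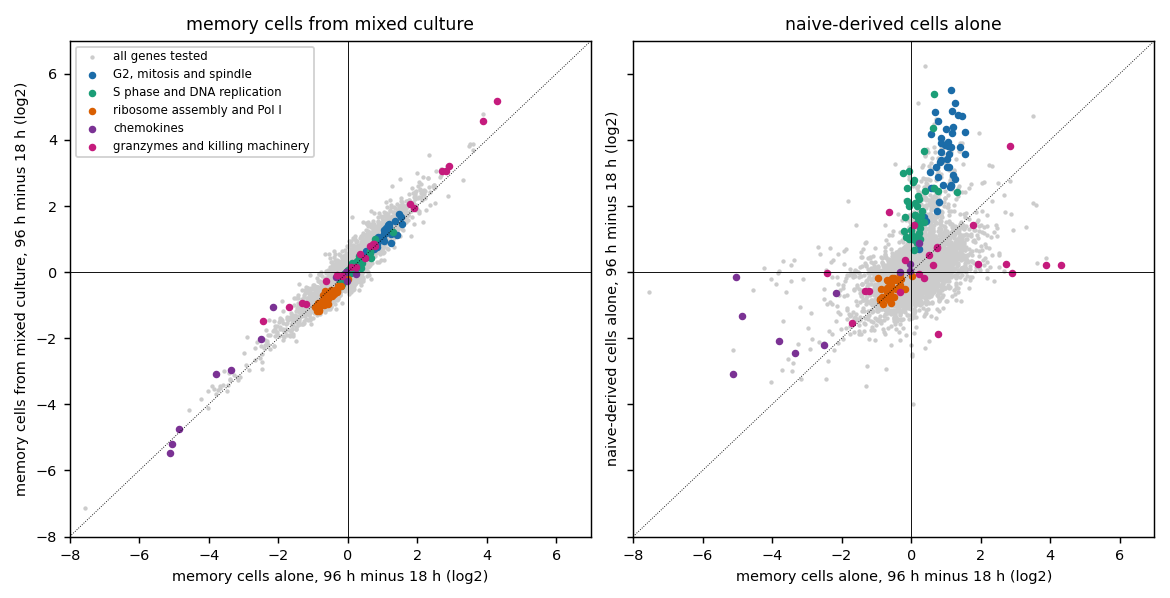
Log2 change from 18 h to 96 h in memory cells alone (x axis) against the same change in other cells (y axis). The left panel shows memory cells from mixed culture and the right panel naive cells alone, with n = 3 arrays per group and time. Grey points are all 19938 genes, coloured points are members of 5 gene lists, and the dotted line marks equal changes. The mitotic genes lie on the side of rises. Chemokines such as Xcl1 (13.29 at 18 h and 8.17 at 96 h in memory cells alone) lie far to the left.

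The immediate early genes, whose products relay the receptor signal to the nucleus, mostly fell. Of 27 receptor signal early response genes measured, 20 fell and 4 rose, against 9.87% and 14.6% of all genes, and the median difference was -0.66 against 0.04 over all genes. Egr2, a zinc finger factor of the receptor response, read 10.81, 10.59 and 10.89 at 18 h and 7.29, 7.38 and 7.36 at 96 h, a fall of 10.7-fold. The nuclear receptor Nr4a1 read 11.12, 11.13 and 11.24 at 18 h and 7.71, 7.79 and 7.82 at 96 h, and it fell by 3.39 ± 0.14 (SE, adjusted p = 6.26e-17). At 0 h Nr4a1 had stood at 8.37, 7.51 and 7.53. Its relatives Nr4a2 and Nr4a3 fell by 2.39 ± 0.17 and 2.84 ± 0.18, and the MAP kinase feedback inhibitor Spry1 fell by 3.17 ± 0.10. The changes in Irf4, a factor scaled to receptor signal strength, and in Myc, which drives cell growth, were smaller. Irf4 read 11.68, 11.57 and 11.70 at 18 h and 10.15, 10.14 and 10.14 at 96 h, still above its 0 h values of 9.62, 9.04 and 8.82. Myc fell by 0.57 ± 0.11, from a mean of 12.64 to 12.07. Batf was not called (0.35 ± 0.15, adjusted p = 0.082), but it was in 4 of 16 alternatives, including those without replicate 2 of 18 h and without the 0 h arrays.

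NF-kappaB subunits and their inhibitors fell together. Of 17 genes of the pathway measured, 14 fell and none rose, with a median of -1.04, and with centred arrays all 17 fell. The subunit Rel read 12.13, 11.92 and 12.03 at 18 h and 9.94, 10.07 and 9.99 at 96 h, below its 0 h values of 10.87, 10.74 and 10.79. Nfkb2, the p100 precursor of the non-canonical pathway, read 10.71, 10.58 and 10.71 at 18 h and 8.89, 8.91 and 8.95 at 96 h. Nfkbia, the inhibitor that holds NF-kappaB in the cytoplasm and is itself a target, fell by 2.37 ± 0.11, the largest fall of the list. The A20 deubiquitinase gene Tnfaip3 fell by 1.65 ± 0.14 and the adaptor Traf1 by 1.42 ± 0.11. Rela, which is largely controlled at the protein level, fell by 0.58 ± 0.08. The members not called were Bcl3 (-0.19), Birc3 (-0.17) and Ikbke (-0.24).

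Because NF-kappaB genes and chemokines fell together, the promoters of the members with the largest falls that hold an NF-kappaB type motif are shown, the 250 bases before the gene start from RefSeq on GRCm38.p6, read on the gene's own strand. Capitals mark the motif GGGANNNCC, searched on both strands, and overlapping matches are merged. The motif has a fixed length. Longer forms, such as gggaagttcc in Ccl1 and gggaaattcc in Cxcl10, were not matched and stay in lower case.
Rel, chr11:23770970-23771219, minus strand: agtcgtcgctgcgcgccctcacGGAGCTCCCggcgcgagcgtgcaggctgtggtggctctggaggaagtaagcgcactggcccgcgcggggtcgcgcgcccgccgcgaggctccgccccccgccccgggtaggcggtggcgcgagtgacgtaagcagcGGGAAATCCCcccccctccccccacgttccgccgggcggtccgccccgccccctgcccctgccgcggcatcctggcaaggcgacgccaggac
Nfkb2, chr19:46304487-46304736, plus strand: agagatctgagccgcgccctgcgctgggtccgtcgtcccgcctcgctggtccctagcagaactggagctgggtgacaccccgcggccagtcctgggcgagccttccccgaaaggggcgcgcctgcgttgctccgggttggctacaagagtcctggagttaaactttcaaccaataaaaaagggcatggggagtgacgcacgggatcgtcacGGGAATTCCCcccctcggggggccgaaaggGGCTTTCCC
Ccl1, chr11:82179813-82180062, minus strand: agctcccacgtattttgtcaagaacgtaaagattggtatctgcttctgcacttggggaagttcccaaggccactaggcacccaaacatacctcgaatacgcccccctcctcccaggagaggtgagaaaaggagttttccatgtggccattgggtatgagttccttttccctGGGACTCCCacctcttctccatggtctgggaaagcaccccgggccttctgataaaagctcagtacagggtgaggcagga
Cxcl10, chr5:92348890-92349139, minus strand: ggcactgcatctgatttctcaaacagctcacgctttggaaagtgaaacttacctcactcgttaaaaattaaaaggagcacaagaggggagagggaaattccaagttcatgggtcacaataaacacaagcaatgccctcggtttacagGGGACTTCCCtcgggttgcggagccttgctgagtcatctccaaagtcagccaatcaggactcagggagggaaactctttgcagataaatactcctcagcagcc

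In windows from 250 bases before to 50 after the gene start, the motif was present in 7 of 20 windows of the NF-kappaB list (35.0%, with 15 of its 17 genes matched), 5 of 8 of the chemokines (62.5%, 8 of 11 genes matched) and 12 of 26 of the early response genes (46.2%, 21 of 27 genes matched). Over all genes tested 4087 of 19177 windows held it (21.3%). The share was 27.8% for the genes lower by at least 1 at 96 h and 22.8% for those higher by at least 1. Across lists the share did not always follow the direction of change. The motif stood in 13 of 26 windows of the BCL2 family list, where 5 genes rose and 6 fell. It stood in 7 of 18 windows of fatty acid oxidation, which mostly rose. In the killing machinery, which also rose, the share was instead below that of all genes, at 2 of 23 windows (8.7%). Ribosome assembly, which fell, had it in 7 of 35. Whether the motif marks genes that fell was not tested. The shares count this fixed-length motif only, so longer forms are missed. A match describes these letters and does not show that a factor bound there.

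Several effector cytokines fell by more than 3 log2 units. Of 20 cytokines measured, 8 fell and 2 rose, with a median of -0.22. At both times 4 of the 20 were near background. Il3, a haematopoietic growth factor, read 11.86, 12.03 and 12.00 at 18 h and was near background at 96 h (4.78, 4.17 and 4.27), at least 79.5-fold lower. Its 0 h values were 7.51, 4.50 and 4.59, so 2 of the 3 unstimulated arrays were near background as well. Il2, the T cell growth factor, read 9.97, 9.98 and 9.98 at 18 h and 4.92, 4.81 and 4.84 at 96 h, at least 20.0-fold lower. The times did not overlap in either gene.

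Ifng, the defining cytokine of cytotoxic T cells, read 13.14, 13.16 and 13.16 at 18 h and 9.20, 9.29 and 9.28 at 96 h, a 14.9-fold fall (log2 -3.90 ± 0.45 SE, adjusted p = 6.78e-08). Its 0 h values were 11.36, 8.01 and 8.15, and the 96 h level lay inside that range. Csf2 (GM-CSF) fell by 3.38 ± 0.31, from 9.99, 10.22 and 10.10 to 6.73, 6.69 and 6.76. Il9 fell by 3.68 ± 0.14 and Il13 by 1.20 ± 0.12, both cytokines better known from helper cells. Il1a, an alarmin of the interleukin 1 family, went from 8.78, 8.87 and 8.84 to near background, at least 9.05-fold lower. Tnf kept more of its level: it read 11.29, 11.42 and 11.49 at 18 h and 10.41, 10.48 and 10.37 at 96 h, a fall of 0.98 ± 0.15. The cytokines that rose were Il10, an inhibitory cytokine, by 1.12 ± 0.15, and Tgfb1, by 0.32 ± 0.09.

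The chemokines of activated CD8+ T cells fell with the cytokines. Of 11 chemokines measured, 8 fell and none rose, and the median was -2.50. Xcl1, which attracts cross-presenting dendritic cells, read 13.25, 13.29 and 13.32 at 18 h and 8.12, 8.28 and 8.10 at 96 h, a 34.8-fold fall that took it below its 0 h values of 11.23, 9.69 and 9.31. Ccl1, a ligand of Ccr8, read 11.81, 12.01 and 11.95 at 18 h and 6.87, 6.82 and 6.92 at 96 h, and Ccl9 read 10.65, 10.84 and 10.76 at 18 h and 6.01, 5.68 and 5.95 at 96 h. Among the other CC chemokines, Ccl3 fell by 3.79 ± 0.35, Ccl4 fell by 3.35 ± 0.19 and Ccl5 fell by 2.16 ± 0.20. Cxcl10, a Cxcr3 ligand induced by interferon, fell by 2.50 ± 0.19. Ccl22 fell by 0.33 ± 0.12, while Ccl17 (-0.02), Cxcl16 (-0.04) and Cxcl9 (0.22) were not called.

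**Figure D2:**
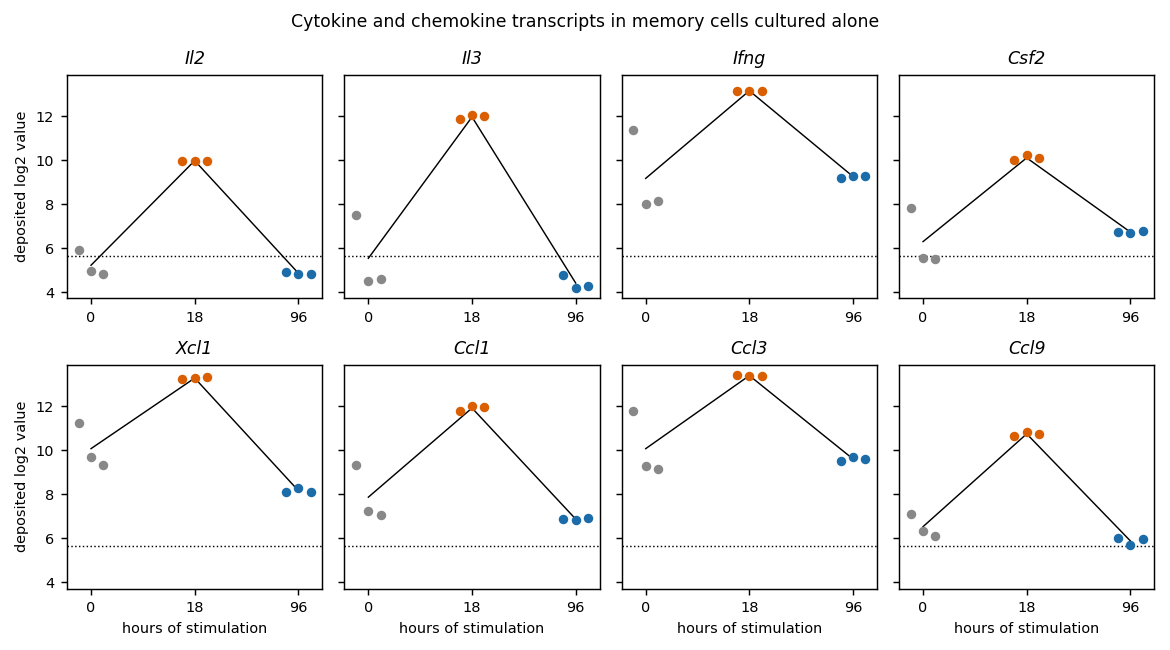
Log2 expression of cytokine and chemokine genes in memory cells alone at 0, 18 and 96 h, 1 point per array and 3 arrays per time. The solid line joins the means, and the dotted line marks the near-background level of the 96 h arrays. The 18 h values stand high and close together, as for Ifng at 13.14 to 13.16, and the 96 h values of Il3 and Il2 lie under the line.

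The killing machinery went the other way. Of 22 genes for granzymes, perforin, death ligands and granule handling, 14 rose and 5 fell, with a median of 0.57. Gzmd read 6.71, 7.19 and 6.87 at 18 h and 11.25, 11.21 and 11.24 at 96 h, a 19.8-fold rise (log2 4.31 ± 0.19 SE, adjusted p = 5.7e-16), from 0 h values of 4.88, 4.74 and 4.58. Gzme read 7.41, 7.67 and 7.64 at 18 h and 11.46, 11.49 and 11.40 at 96 h, a 14.7-fold rise. Gzmg rose by 2.92 ± 0.11, Gzmf by 1.91 ± 0.12 and Gzmc by 1.79 ± 0.22. Gzmc to Gzmg are near-identical neighbours, so the share of each in the signal of its probes is uncertain. Gzma, a tryptase that acts without caspases, read 9.24, 9.56 and 9.37 at 18 h and 12.27, 12.19 and 12.23 at 96 h, and Gzmk rose by 2.73 ± 0.21.

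Granzyme B was the exception among the granzymes measured. Gzmb, the caspase-cleaving granzyme, was already high in every array: it read 12.91, 12.64 and 12.80 at 0 h, 13.17, 13.15 and 13.14 at 18 h and 13.29, 13.27 and 13.18 at 96 h, and the difference of 0.09 ± 0.08 was not called (adjusted p = 0.489). Perforin, the pore former Prf1, read 11.10, 10.95 and 11.10 at 18 h and 11.77, 11.87 and 11.85 at 96 h, a rise of 0.78 ± 0.14. Of the granule docking genes, Unc13d and Rab27a rose by 0.74 ± 0.09 and 0.75 ± 0.11, Ctsw by 0.51 ± 0.11 and Gzmm by 0.36 ± 0.11. Fasl rose by 0.64 ± 0.21 (adjusted p = 0.0247) and Lamp1 by 0.23 ± 0.08. The call for Fasl was lost with centred arrays and without each of 4 arrays, replicates 1 and 2 of 18 h and 2 and 3 of 96 h. The genes that fell were Serpinb9, the inhibitor that shields T cells from their own granzyme B (by 1.32 ± 0.16), its relatives Serpinb9b (by 2.43 ± 0.11) and Serpinb6b (by 1.70 ± 0.24), the membrane fusion protein Stx11 (by 1.21 ± 0.13) and the death ligand Tnfsf10 (by 0.64 ± 0.08). Nkg7 (-0.17) and Srgn (-0.32) were not called.

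**Figure D3:**
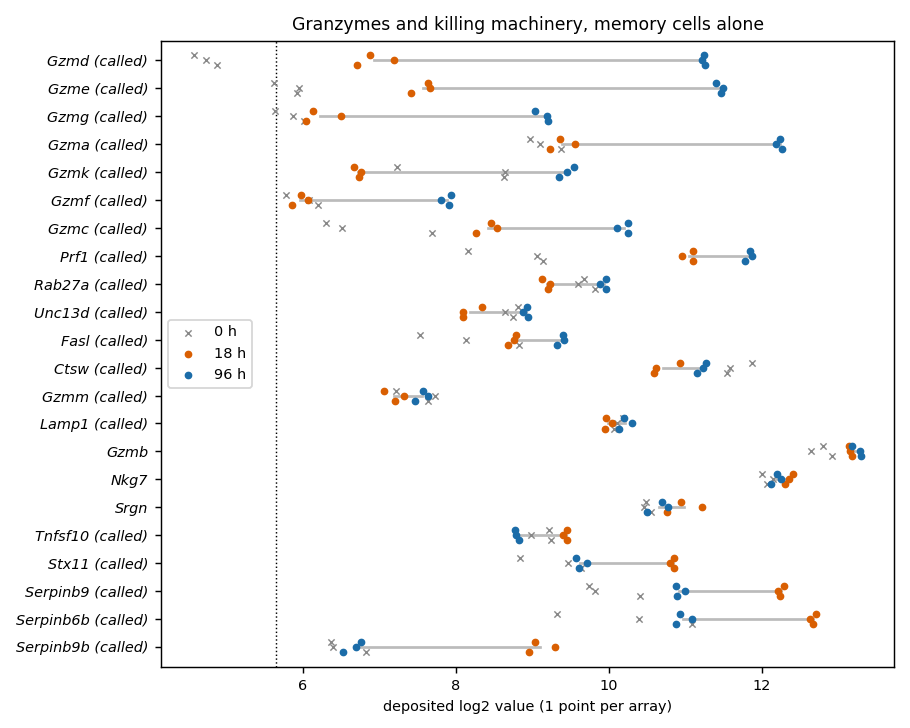
Log2 expression of granzyme and perforin genes in memory cells alone, 1 point per array, with crosses at 0 h and the dotted line at the near-background level of the 96 h arrays. Gzmd and Gzme rise by several units between 18 h and 96 h, while Gzmb lies between 12.64 and 13.29 in all 9 arrays.

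Inhibitory receptors changed in both directions. Of 18 inhibitory receptors and ectoenzymes measured, 9 fell and 6 rose. Pdcd1 (PD-1) read 9.65, 9.88 and 9.98 at 18 h and 7.37, 7.43 and 7.21 at 96 h, back within the range of its 0 h values of 7.53, 7.17 and 7.18. Lag3 read 8.76, 8.60 and 8.95 at 18 h and 6.91, 6.95 and 6.91 at 96 h. Cd200 fell by 3.60 ± 0.11 and Ceacam1 fell by 3.44 ± 0.15. Entpd1, which degrades extracellular ATP, moved the opposite way: it read 6.58, 6.81 and 6.61 at 18 h and 10.11, 10.23 and 10.20 at 96 h, above its 0 h values of 8.80, 8.72 and 8.30. Cd244a (2B4) rose by 1.73 ± 0.09. Ctla4 (0.12 ± 0.14, adjusted p = 0.623) and Havcr2, which encodes TIM-3 (0.36 ± 0.26, adjusted p = 0.394), were not called. Havcr2 was called when the compared groups were fitted alone or the 0 h arrays were omitted. It read 9.92, 9.91 and 10.12 at 18 h against 7.70, 6.73 and 5.57 at 0 h.

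Costimulatory receptors and TNF family ligands mostly fell, 18 of 25 (72.0%, against 9.87% of all genes), with a median of -0.54. In this list 4 rose (16.0%, against 14.6%). Tnfrsf4 (OX40) read 10.48, 10.48 and 10.60 at 18 h and 8.23, 8.21 and 8.31 at 96 h. Its ligand Tnfsf4 fell by 2.35 ± 0.13, Tnfsf8 by 2.12 ± 0.19 and Tnfsf11 (RANKL) by 1.88 ± 0.11. Cd83 read 9.99, 10.22 and 9.96 at 18 h and 6.25, 6.55 and 6.31 at 96 h, and Slamf1 fell by 2.67 ± 0.17. Cd24a went from 8.70, 9.14 and 9.28 to near background, at least 10.5-fold lower. Cd27 fell by 1.23 ± 0.10 and Cd69, an early activation marker, by 0.96 ± 0.14. Tnfrsf9 (4-1BB) stayed high at both times, with means of 12.52 and 12.19, and was not called (adjusted p = 0.219), although array weights, a fit to the compared groups alone and a fit without the 0 h arrays each called it.

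Cytokine receptors fell in 13 and rose in 8 of 31 genes of receptors and JAK-STAT feedback. Ifngr1, a chain of the interferon gamma receptor, rose by 1.95 ± 0.09, and the signal inhibitor Socs2 by 1.39 ± 0.10. Il2rb rose by 0.67 ± 0.11 and Il7r by 0.58 ± 0.16, while Il2ra, the high-affinity IL-2 receptor chain, was high and not called, at 12.92, 12.76 and 12.80 against 12.87, 12.89 and 12.84. Il12rb2 fell by 0.66 ± 0.12, Stat4, which acts after the IL-12 receptor, by 1.20 ± 0.08, and Stat5a by 1.49 ± 0.10. Of 24 chemokine and homing receptors, 5 rose and 7 fell (20.8% and 29.2%, against 14.6% and 9.87% of all genes). Ccr2, the receptor for monocyte chemoattractants, read 8.01, 8.08 and 8.20 at 18 h and 10.77, 10.85 and 10.74 at 96 h. Its 0 h arrays disagreed, at 10.74, 10.81 and 8.60. Ccr7, which guides T cells to lymph nodes, read 12.60, 12.62 and 12.65 at 18 h and 10.67, 10.76 and 10.72 at 96 h, below all 3 of its 0 h values (11.87, 11.78 and 12.48). The integrin Itgb7 read 7.48, 7.54 and 7.68 at 18 h and 9.06, 9.05 and 9.09 at 96 h, and Cd44 fell by 1.64 ± 0.23. S1pr1, the egress receptor, was at 7.52, 7.45 and 7.53 and then at 7.44, 7.63 and 7.63, against 9.29, 9.48 and 9.38 at 0 h.

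NK type receptors had 3 of 11 rising (27.3%, against 14.6% of all genes) and 1 falling (9.09%, against 9.87%). Klrb1c (NK1.1) was near background at 18 h and read 6.94 to 7.06 at 96 h, at least 2.54-fold higher. Klrd1 (CD94) rose by 0.83 ± 0.20 and Klre1 by 0.78 ± 0.19. Klri2 fell by at least 1.3-fold. Fcer1g, which pairs with several activating receptors, read 6.46, 6.40 and 6.49 at 18 h and 9.20, 9.32 and 9.47 at 96 h. It stands on the myeloid marker list, of which 3 of 22 genes rose (13.6%, against 14.6% of all genes) and 6 were near background at both times. The part of myeloid cells in the rise of Fcer1g was not tested.

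**Figure D4:**
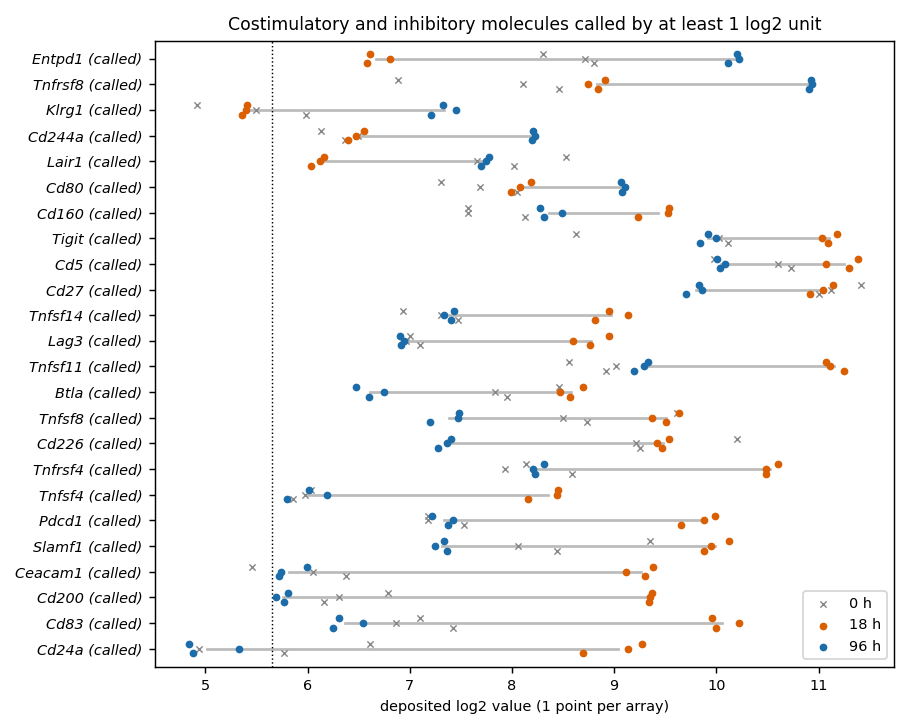
Log2 expression of receptor genes in memory cells alone, 1 point per array, with crosses at 0 h and the dotted line at the near-background level of the 96 h arrays. Pdcd1 falls from 9.65 to 9.98 at 18 h to 7.21 to 7.43 at 96 h, and Entpd1 rises from 6.58 to 6.81 to 10.11 to 10.23.

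The transcription factors of the effector and memory states did not move as one. Of 19 effector factors, 7 rose (36.8%) and 4 fell (21.1%). Of 18 naive and memory factors, 7 rose (38.9%) and 5 fell (27.8%). Of all genes 14.6% were higher and 9.87% lower. Both medians, 0.05 and 0.02, turned negative with centred arrays. Prdm1 (Blimp-1), which drives terminal effector cells, read 6.96, 6.79 and 7.07 at 18 h and 8.78, 8.75 and 8.80 at 96 h, and Id2 read 9.90, 10.19 and 10.30 and then 11.59, 11.63 and 11.56. Nfil3 rose by 1.43 ± 0.15, Runx3 by 0.89 ± 0.10 and Eomes by 0.43 ± 0.09. Zeb2, another factor of terminal effector cells, fell by 2.42 ± 0.15, and Tbx21 (T-bet) by 0.78 ± 0.14. Bach2, which restrains effector differentiation, read 9.65, 9.21 and 9.43 at 18 h and 7.51, 7.71 and 7.43 at 96 h. Id3 fell by 0.90 ± 0.15 and Bcl6 by 0.59 ± 0.13, while Lef1 rose by 0.40 ± 0.09. Foxo1 (0.02) and Klf2 (-0.02) were not called.

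Mitotic genes rose without exception in the list. All 43 genes of G2, mitosis and the spindle were called higher at 96 h, with a median of 1.03, and 40 were with centred arrays. At 18 h 41 of the 43 had been called lower than at 0 h, in a comparison that called 17.3% of all genes lower. At 96 h 3 were called higher and 6 lower than at 0 h, where 16.1% and 8.44% of all genes were. These comparisons share arrays with the main one. Ccnb2, the cyclin B2 that pairs with Cdk1, read 12.33, 12.36 and 12.19 at 0 h, 10.68, 10.82 and 10.69 at 18 h and 12.04, 12.12 and 12.10 at 96 h. Plk1, the polo kinase of mitotic entry, read 9.80, 9.70 and 9.78 at 18 h and 11.38, 11.25 and 11.30 at 96 h. Prc1, which bundles the spindle midzone, rose by 1.54 ± 0.11, the kinesins Kif11 and Kif23 by 1.17 ± 0.09 and 1.09 ± 0.08, and the proliferation marker Mki67 by 1.25 ± 0.27.

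Since the mitotic genes rose together, the promoters of the members with the largest rises that hold a cell cycle homology region (CHR) motif are shown in the same way, with capitals on TTTGAA or TTCGAA in either direction.
Prc1, chr7:80294226-80294475, plus strand: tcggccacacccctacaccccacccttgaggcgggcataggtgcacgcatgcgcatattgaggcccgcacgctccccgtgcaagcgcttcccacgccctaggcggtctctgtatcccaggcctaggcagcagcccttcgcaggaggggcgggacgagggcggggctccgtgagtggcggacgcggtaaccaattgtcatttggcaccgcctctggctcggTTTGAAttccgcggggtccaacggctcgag
Ccnb2, chr9:70421555-70421804, minus strand: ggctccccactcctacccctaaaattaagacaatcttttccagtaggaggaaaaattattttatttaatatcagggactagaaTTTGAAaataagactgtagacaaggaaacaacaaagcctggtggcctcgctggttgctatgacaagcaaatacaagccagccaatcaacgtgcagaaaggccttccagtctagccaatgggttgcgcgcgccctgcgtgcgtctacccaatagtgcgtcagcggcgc

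The CHR motif was present in 32 of 40 windows of the mitotic list (80.0%, 37 of 43 genes matched) and in 16.5% of windows of all genes tested. The CCAAT box stood in the same share of the list (80.0%) and in 37.4% of all windows. Among genes higher by at least 1 at 96 h the CHR share was 23.0%, and among those lower by at least 1 it was 10.2%.

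Genes of DNA replication changed far less than those of mitosis. Of 41 S phase genes, 10 rose (24.4%, against 14.6% of all genes) and none fell, with a median of 0.16. With centred arrays 6 of the 41 rose, with a median of 0.07, where 2124 of all 19938 genes rose. Tk1, the thymidine kinase, rose by 1.31 ± 0.10, Lig1, the DNA ligase of replication, by 0.65 ± 0.09, and Rrm2, the ribonucleotide reductase subunit, by 0.66 ± 0.10. Rrm2 read 11.89, 11.55 and 11.85 at 18 h and 12.44, 12.42 and 12.41 at 96 h. The E2F motifs TTTCCCGC and TTTGGCGC, on both strands, stood in 27.5% of S phase windows and 2.21% of all windows. Among 24 G1 regulators and CDK inhibitors, 12 rose and 4 fell, and the risers included both the cyclin Ccnd3 (by 0.95 ± 0.08) and the inhibitors Cdkn1b (by 0.92 ± 0.08), Cdkn2a (by 0.93 ± 0.10) and Rbl2 (by 1.46 ± 0.11). Btg1, an antiproliferative gene, fell by 1.31 ± 0.09.

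Genes of ribosome assembly fell between 18 h and 96 h but mostly stayed above the unstimulated level. Of 38 genes of ribosome assembly and RNA polymerase I, 36 fell and none rose, with a median of -0.60. None of them changed by 1 or more. All 38 had been called higher at 18 h than at 0 h (18% of all genes) and 36 were higher at 96 h than at 0 h (16.1%), in comparisons that share arrays. The largest falls among those with the smallest p were Wdr12 (by 0.95 ± 0.13), Rrp9 and Rrp12 (each by 0.89 ± 0.10). Cytosolic ribosomal proteins were less affected, with 7 of 35 lower (20.0%, against 9.87% of all genes) and none higher, and 14 lower with centred arrays. Of the 35, 2 were called higher at 96 h than at 0 h. Of 22 genes of nucleotide and one-carbon synthesis, 12 fell and 2 rose, with Ctps, the CTP synthase, falling by 0.86 ± 0.12. Cytosolic chaperones had 12 of 21 lower and none higher, among them Hsph1 (by 0.79 ± 0.11) and Hspd1 (by 0.52 ± 0.08). Genes of the unfolded protein response had 9 of 22 lower and 1 higher, with Hspa5 (BiP) falling by 0.62 ± 0.08 and Hyou1 by 0.80 ± 0.10.

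Genes of fatty acid and cholesterol synthesis were called higher more often than lower. Of 14 genes of fatty acid synthesis and desaturation, 8 rose and none fell, with a median of 0.60. Me1, the malic enzyme that supplies NADPH, rose by 1.70 ± 0.12, the desaturase Fads2 by 1.67 ± 0.12, the elongase Elovl6 by 1.48 ± 0.15 and the acetyl-CoA synthetase Acss2 by 1.43 ± 0.07. Of 24 genes of cholesterol synthesis and uptake, 14 rose and none fell, with a median of 0.34, including Tm7sf2 (by 1.05 ± 0.12) and Dhcr7 (by 0.89 ± 0.08). With centred arrays 11 rose and 1 fell. Idi2, a paralogue of the isomerase Idi1 that was not on that list, went from 9.26, 9.52 and 9.52 at 18 h to near background at 96 h, at least 13.7-fold lower.

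Fatty acid oxidation had 11 of 20 genes higher and 1 lower. Cpt1a, the gate of mitochondrial fatty acid import, had a mean of 8.58 ± 0.12 (SD, n = 3) at 18 h and read 9.79, 9.85 and 9.88 at 96 h, against 10.04, 9.84 and 9.97 at 0 h. Hadh rose by 1.03 ± 0.09 and Acadl by 0.93 ± 0.11. Respiratory chain genes showed little change, 5 of 40 higher and 2 lower, both shares below the background. Glycolysis and glucose transport had 12 of 20 genes higher and 2 lower, with Aldoc rising by 2.33 ± 0.17 and the phosphofructokinases Pfkp and Pfkm by 0.73 ± 0.11 and 0.71 ± 0.09. Of 24 genes of the hypoxia response, 14 rose and 2 fell. Bnip3, a mitophagy receptor, read 9.90, 10.04 and 9.87 at 18 h and 11.95, 11.92 and 11.96 at 96 h, and Ddit4, an inhibitor of mTORC1, rose by 1.87 ± 0.17.

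Interferon targets were mixed. Of 26 genes of the type I interferon response, 8 rose and 6 fell (30.8% and 23.1%, against 14.6% and 9.87% of all genes). Mx1 rose by 1.95 ± 0.18, Ddx58 (RIG-I) by 1.44 ± 0.15 and Oas3 by 1.37 ± 0.11, while Ifit3 fell by 1.89 ± 0.18 and Oasl2 by 1.04 ± 0.15. Of 15 interferon gamma targets, 6 rose and 2 fell, with Gbp4 and Gbp7 rising by 1.24 ± 0.18 and 1.29 ± 0.29 and Cd274 (PD-L1) falling by 1.63 ± 0.15. The immunoproteasome subunits Psmb8, Psmb9 and Psmb10 rose by 0.69 ± 0.12, 0.84 ± 0.10 and 1.32 ± 0.15. They were the only 3 of 31 proteasome genes called higher (9.68%, against 14.6% of all genes), while 7 were called lower (22.6%, against 9.87%). In the BCL2 family, Bcl2 and Bcl2l1 moved in opposite directions. The survival gene Bcl2 read 9.94, 9.61 and 9.89 at 18 h and 11.19, 11.18 and 11.16 at 96 h. Bcl2l1 (BCL-XL) read 9.38, 9.31 and 9.33 at 18 h and 8.56, 8.55 and 8.61 at 96 h. The death receptor Fas fell by 1.96 ± 0.20 and its inhibitor Cflar by 0.90 ± 0.09.

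**Figure D5:**
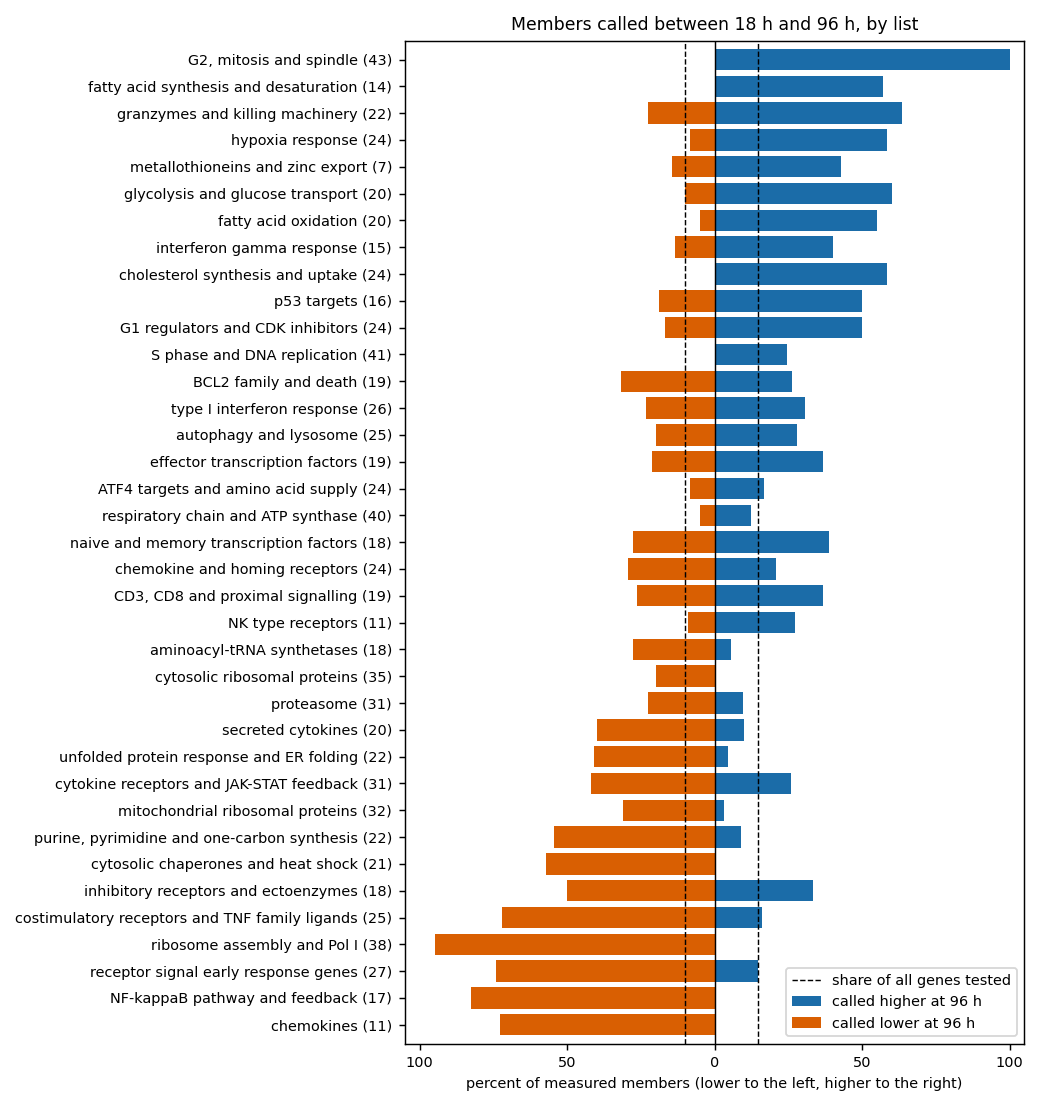
Percent of the measured members of each gene list called higher (to the right) or lower (to the left) at 96 h than at 18 h in memory cells alone, n = 3 arrays per time. The dashed lines mark the shares of all genes, 14.6% higher and 9.87% lower. Every mitotic gene measured is called higher, and 36 of 38 ribosome assembly genes are called lower.

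The genes that differed by at least 1 were also set against the unstimulated level. The 3 comparisons among 0, 18 and 96 h share arrays, so their values are set side by side only. The genes were chosen for their difference from the 18 h arrays, which favours a turn at 18 h, so the counts are a description. At 18 h 7034 genes were called against 0 h (35.3%), and at 96 h 4884 were (24.5%). Of the 720 genes that differed by at least 1, 433 had a lower mean at 18 h than at 0 h and then a higher one at 96 h, and in 283 of them the 96 h mean was above that at 0 h. In 232 genes the mean was higher at 18 h than at 0 h and lower again at 96 h, and in 127 of them it ended below 0 h. Only 39 genes rose through both steps and 16 fell through both. Leaving out each 0 h array in turn, a check chosen after the data were seen, gave 414 to 443 genes of the first kind and 230 to 235 of the second. Of the 472 risers, 228 were called above 0 h at 96 h, 74 below it and 170 were not called. Of the 248 fallers, 51 were called above 0 h, 85 below it and 112 were not called.

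Memory cells cultured with naive cells went through nearly the same change, in arrays independent of the 6. Of the 4868 genes called in memory cells alone, 4148 were called in the same direction in TMem mix (85.2% of these and 75.3% of the 5507 called in the mix, which are 27.6% of all genes) and 7 in the opposite direction. In the mix 16.1% of all genes were called higher and 11.5% lower. Across genes, which are not independent, the differences correlated with r = 0.923 and rho = 0.768. The difference between the changes was called for 39 genes (0.196% of those tested), all with a lower value for the change in the cells alone than in the mix, and 1018 had an unadjusted p under 0.05. Leaving out 1 array gave 18 to 29 such genes. It was 18 without replicate 1 of the 96 h cells alone or replicate 3 of the 18 h cells alone, 19 without replicate 3 of the 96 h cells alone or replicate 1 of the 18 h mix, 21 without replicate 1 of the 96 h mix, 22 without replicate 2 of the 18 h mix, 23 without replicate 2 of the 96 h mix and 25 without replicate 2 of the 18 h cells alone. A fit without the 0 h arrays called 190. Ctla4 showed the largest difference: it changed by 0.12 alone and by 1.65 in the mix (difference -1.53, adjusted p = 0.00016). Il12rb2 fell by 0.66 alone and changed by 0.54 in the mix, and Aldoc rose by 2.33 alone and by 3.53 in the mix. Of the 24 hypoxia response genes, 4 differed in this way.

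Naive cells over the same interval shared less of the change. Of the 4868 genes, 2315 were called in the same direction in TN alone (47.6% of these and 47.5% of the 4873 called there) and 310 in the opposite one, and r across genes was 0.481 (rho 0.416). The difference between the changes of memory and naive cells was called for 3161 genes (15.9%), 1917 higher (9.61%) and 1244 lower (6.24%) in memory cells. In the TN arrays, the Y-linked Eif2s3y fell to near background between 18 h and 96 h, 7 of 22 myeloid markers and 5 of 14 B cell markers were called higher at 96 h, and Cd74 changed by 2.14; the part of these in the difference was not tested.

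The early response and NF-kappaB lists fell in naive cells as well, with 21 of 27 and 15 of 17 genes called lower, against 13.1% of all genes. The change itself differed between the cell types in 12 of the 27 early response genes (8 higher and 4 lower in memory cells) and in 5 of the 17 NF-kappaB genes (3 higher and 2 lower), against 15.9% of all genes. Mitosis and replication differed in every measured gene. In TN alone all 43 mitotic and all 41 S phase genes rose (11.3% of all genes did), with medians of 3.56 and 1.72. All 43 and all 41 were called for a lower change in memory cells than in naive cells, against 6.24% of all genes. In memory cells, 10 of the 41 S phase genes were called higher. Rrm2 rose by 5.39 in naive cells and by 0.66 in memory cells, and Bub1, near background in naive cells at 18 h, rose by at least 4.66 and by 1.15. For chemokines, 7 of 11 were called for a larger fall in memory cells. The changes in Il3 differed between the cell types (adjusted p = 2.87e-10), and Il3 was not called in naive cells. Its 96 h means were near background in both, and with those raised to the background level the change in memory cells minus that in naive cells was -6.24.

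Of the granzymes, Gzmd, Gzme and Gzmg rose in memory cells and were not called in naive cells (0.21, 0.20 and -0.01), and the difference was called for each, at 4.10, 3.68 and 2.93. Gzmd was near background in naive cells at both times. Gzmb went the other way, with a change of 1.42 in naive cells and a difference of -1.32 (adjusted p = 6.7e-10). Prf1 fell by 1.88 in naive cells while it rose by 0.78 in memory cells. Gzma rose in both, by 3.80 in naive and 2.84 in memory cells. Prdm1 was not called in naive cells (0.04), with a difference of 1.80, and the change in Bach2 (-1.70 in naive and -1.88 in memory cells) was not called as different (adjusted p = 0.6, difference -0.19).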

How the data were processed

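RNA of 30 samples was measured on a mouse whole-transcript Affymetrix array. The values used are the log2 expression values that the authors deposited in the series table; RMA and Partek are named in the submitters' processing notes, without versions. Rows with 1 gene symbol were kept (21789 of 35556 rows; 1621 named several genes and 12146 were not named), and the row with the highest mean stood for a gene with several rows, which left 19938 genes. A linear model with 1 mean per group over all 30 arrays was fitted with limma 3.58.1 in R 4.3.3 (lmFit and eBayes, 20 residual degrees of freedom), and p-values were adjusted over all genes by the Benjamini-Hochberg method. A gene was called at an adjusted p under 0.05. SE is the standard error of a log2 difference from that model. The p-values measure the spread between repeats, pooled for each gene over the groups of all 30 arrays and moderated by eBayes. Arrays outside a comparison therefore also enter its SE and p-value.

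The 6 arrays were taken from the labels, while the gene lists were chosen with earlier results of these data known. No test was applied to a list as a whole, and the list counts are a description. Of 1001 distinct list genes 919 were matched to the table, and the others were not analysed here. Named genes are the 15 largest called rises and falls without overlap, the members of a list that had the lowest adjusted p (6 at most per list), whole lists where described, genes followed throughout whatever their result, and the 6 largest called differences between effects in each direction. The scripts were tested on simulated data. The alternatives were centring, quantile normalization, a filter on low values, the mean of a gene's rows, a trended robust fit, array weights, fewer arrays in the fit, a replicate block and leaving out each array. Promoter windows came from RefSeq (GRCm38.p6) and were matched by symbol. Array data carry no read depth, and the number of arrays limits the precision.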

Additional observations from a re-analysis of the deposited data

Results flagged for a closer look

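The change from 18 h to 96 h differed between memory and naive cells in 3161 genes by the limma test of the difference itself. The largest called differences in favour of memory cells, as the log2 change in memory cells minus that in naive cells, were 4.10 for Gzmd, 4.03 for Eif2s3y, 3.68 for Gzme, 3.46 for Ly6a2, 3.34 for Gpr141 and 2.93 for Gzmg. The value for the Y-linked Eif2s3y moved with the naive arrays, in which it fell to near background at 96 h, while the change in memory cells was 0.05. In the other direction they were -6.96 for Il3, -5.85 for the histone gene H2ac4, -4.91 for the potassium channel Kcnma1, -4.91 for Ccl1, -4.73 for Rrm2 and -4.36 for Bub1. Some of these differences rest on group means near background, and they change when such means are raised to the background level. Il3 (96 h in both cell types) then gives -6.24, H2ac4 (naive cells at 18 h) -4.51, Bub1 (naive cells at 18 h) -3.51, Eif2s3y (naive cells at 96 h) 2.50, Gpr141 (memory cells at 18 h, naive cells at both times) 3.62 and Gzmd (naive cells at both times) 4.35. The order of these genes is therefore not settled.

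The change also differed between memory cells alone and memory cells mixed with naive cells, in 39 genes by the same kind of test. The largest called differences, as the change alone minus the change in the mix, were -1.53 for Ctla4, -1.32 for Arrb1, -1.32 for Mgarp, -1.20 for Il12rb2, -1.20 for Aldoc and -1.07 for H2-Ab1. Mgarp was near background at 18 h both alone and in the mix, and with those means raised its difference was -1.19. With 3 arrays in each group, no test for a single outlying array was applied to the groups.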

How the results depend on the processing

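The main count of 4868 genes was 4083 to 4380 when 1 array was left out and 7546 with array weights. The difference between memory and naive cells was called for 3161 genes as reported, 2649 to 2901 with 1 array left out, 5819 with array weights and 4973 with only the compared groups in the fit. The difference between memory cells alone and in the mix was called for 39 genes as reported, 18 to 29 with 1 array left out, 61 with quantile normalization, 330 with array weights, 196 with only the compared groups, 190 without the 0 h arrays and 25 with the replicate block within cell type. The counts with 1 array left out were 3988 to 4876 for 96 h against 0 h, 5928 to 7310 for 18 h against 0 h, 4839 to 5002 for the mix and 4117 to 4289 for naive cells. The cause of these moves was not tested. Centring moved the share called higher from 51% to 61.6% for 18 h against 0 h and from 46.2% to 35.3% in naive cells, and quantile normalization moved it from 65.5% to 53.8% for 96 h against 0 h. Over 306 named genes, 4755 checks kept the call, 37 gained it, 98 lost it and none reversed.

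The replicate numbers share only a number: the deviations of same-numbered 18 h and 96 h arrays correlated with r = 0.0531, -0.181 and -0.115, and 1 of 3 arrays correlated best with its own number. With the replicate block, 4734 genes were called in the main comparison, and 34 for the difference from the mix. With the block within cell type the main count was 4794.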
